A study of Homo sapiens with 18 samples.

Results

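The kallikreins described here are 6 genes of the human kallikrein locus that are linked with prostate tissue or lie beside those that are: KLK3, which encodes prostate-specific antigen (PSA), KLK2, KLK4, KLK15, KLK1 and KLK11. They were found by gene name in the count and FPKM tables, where they are 6 of 23158 genes with counts. The cells were C4-2B, a human prostate cancer cell line of luminal type that grows without added androgen, cultured in medium with serum. Poly(A) RNA was sequenced from 18 libraries in 6 groups of 3. After 2 days there were DMSO vehicle cultures and cultures with 0.1 μM VIC-1911, an inhibitor of the mitotic kinase AURKA. After 7 days there were DMSO vehicle cultures, cultures with 0.1 μM VIC-1911, cultures with 1 μM olaparib, an inhibitor of the DNA repair enzyme PARP, and cultures with both drugs at these doses. All groups are the same cell line with no engineered allele, so the replicates are libraries of 1 line and the p-values measure the spread between these libraries, which may be technical.

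Kallikreins are secreted serine proteases made as inactive precursors. In the luminal cells of the prostate, KLK2 and KLK3 are classic androgen-induced genes, and the PSA protein in blood is used to follow prostate cancer. PSA cleaves the semenogelins and so liquefies semen, KLK2 is a trypsin-like enzyme that can activate the PSA precursor, and KLK4 is a further trypsin-like member that is also known from tooth enamel.

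On GRCh38 (GENCODE v44) all 6 genes lie on chromosome 19. KLK1 spans chr19:50819146-50823787 on the minus strand and KLK15 spans chr19:50825289-50837213 on the minus strand. KLK3 spans chr19:50854915-50860764 and its neighbour KLK2 spans chr19:50861568-50880567, both on the plus strand. KLK4 spans chr19:50906351-50911395 and KLK11 spans chr19:51022216-51028039, both on the minus strand. KLK15 overlaps a long non-coding gene on the other strand by 6684 bases, none of them exonic in both genes, and no other member overlaps an annotated gene.

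KLK2 and KLK3 are the closest copies in the group. Their coding sequences match at 668 of 783 aligned bases (85.3%), against 75.4% for KLK1 with KLK2 and 58.6% to 74.4% for the remaining pairs. Their longest identical coding stretch, bases 420 to 479 of both, is shown because a short read inside it has no single origin.

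KLK2 and KLK3 shared coding run: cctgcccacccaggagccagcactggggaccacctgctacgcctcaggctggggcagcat

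Of the 1415 windows of 50 bases in the KLK3 transcript, 11 (0.777%) were identical to a window of KLK2, which is 0.396% of the 2780 KLK2 windows, and no 100-base window of either was shared. The other members shared no 50-base window with any gene. How reads with several origins were counted is not given in the sources used here. The windows of each gene were taken from its canonical transcript alone, and only identical windows were counted. They therefore do not bound how far the KLK2 and KLK3 counts are uncertain.

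The RefSeq promoter table (GRCh38.p14) held an entry for 5 of the 6 members. The stretches before the start sites of KLK3, KLK2 and KLK4 are shown because these are the 3 members with the highest levels. In these lines, capitals mark AGAACA in KLK3, which resembles 1 arm of an androgen response element, a variant of these letters in KLK2 and KLK4, and a TATA-like run near the start of KLK3 and KLK4. The KLK3 and KLK4 sequences are chr19:50854665-50854914 on the plus strand and chr19:50911396-50911645 on the minus strand, each ending at the base before the start. The KLK2 sequence is chr19:50873255-50873297 on the plus strand, from base -184 to base -142 before its RefSeq start. That start, chr19:50873439, lies inside the GENCODE span of KLK2 given above, which begins further upstream.

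KLK3 promoter: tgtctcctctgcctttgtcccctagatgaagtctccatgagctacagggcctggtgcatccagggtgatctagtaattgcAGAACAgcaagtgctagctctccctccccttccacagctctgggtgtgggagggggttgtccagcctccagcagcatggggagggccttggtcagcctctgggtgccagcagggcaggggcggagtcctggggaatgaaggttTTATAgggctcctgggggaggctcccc
KLK2 promoter: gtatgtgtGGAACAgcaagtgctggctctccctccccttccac
KLK4 promoter: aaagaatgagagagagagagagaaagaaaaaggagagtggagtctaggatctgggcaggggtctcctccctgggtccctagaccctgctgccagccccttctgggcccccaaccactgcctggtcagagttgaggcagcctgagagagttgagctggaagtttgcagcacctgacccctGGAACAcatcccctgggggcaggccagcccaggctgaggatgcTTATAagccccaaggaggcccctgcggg

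AGAACA stood at bases -170 to -165 in KLK3. GGAACA stood at bases -176 to -171 in KLK2 and -71 to -66 in KLK4. Searched on both strands of the 250 bases before the start, AGAACA was present in 12.4% and GGAACA in 11.6% of 35116 promoters, so either match is common. TTATA, searched on the gene's own strand from -40 to -21, was present in KLK3, KLK2, KLK4 and KLK15 and in 1.59% of all promoters. The KLK3 and KLK2 promoters matched at 206 of 240 aligned bases (85.8%), with an identical run of 80 bases.

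The libraries held between 3245273 and 7184420 counts after 2 days and between 4967931 and 19684208 after 7 days. All 9 luminal markers listed, such as KRT8 and KRT18, reached a mean of 1 FPKM (fragments relative to gene length and library size, so a level per length) in every group. Of the basal markers, KRT5 was listed at 0 FPKM throughout, TP63 had at most 1 count and KRT14 reached a group mean of 2.61 FPKM. Endothelial and leukocyte markers summed to at most 0.0113 FPKM in any library. Replicate pairs differed by 1.26 to 5.52 in chi-square per degree of freedom, most between combination replicates 1 and 2 (5.52) and 7-day vehicle replicates 1 and 2 (4.11). The vehicle and VIC-1911 libraries of 7 days carry 1 range of library numbers and the olaparib and combination libraries another, so for olaparib or the combination against vehicle the range and the drug cannot be told apart.

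The members spanned about the whole range of levels. In the 7-day vehicle cultures KLK3 was the most abundant of 26443 genes by mean FPKM, at 2681 FPKM, and alone made up 0.846% of the summed FPKM. KLK2 was at rank 148 with 240.5 FPKM, KLK4 at rank 276 with 152 FPKM and KLK15 at rank 5707 with 8.80 FPKM. KLK1 was at 0.602 ± 0.377 FPKM (SD, n = 3). KLK11 had 0 counts in 14 of 18 libraries and at most 5 in the others. A count of 0 allows up to 3 counts, which is between 0.171 and 0.924 CPM (counts scaled to the library total) in these libraries, for counting error only. KLK3 held 87.0% ± 0.266 of the members' summed FPKM in these vehicle cultures and at least 82.3% on average in every group.

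**Figure D1:**
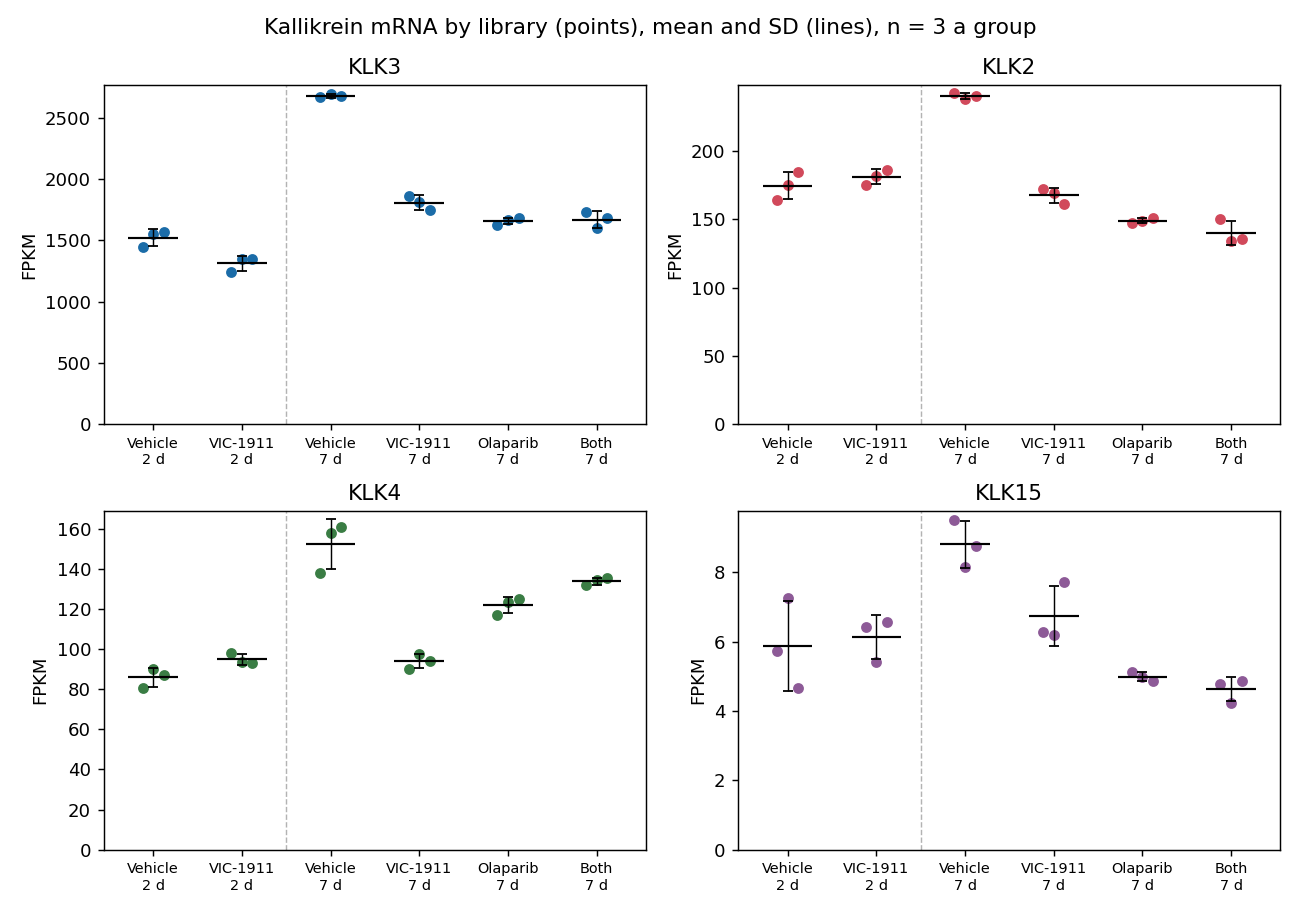
FPKM of KLK3, KLK2, KLK4 and KLK15 in each library (points), with the mean (long line) and SD (bars) of 3 libraries per group; each y axis starts at 0 and the dashed line parts the 2-day from the 7-day experiment. At 7 days all treated libraries sit below all vehicle libraries for each of the 4 genes, and KLK4 alone is lowest with VIC-1911. The share of all genes separated in this way was not counted. By a different measure, an adjusted p under 0.05 (edgeR), between 25.7% and 28% of all genes fell against the 7-day vehicle, by drug group.

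In the 2-day cultures KLK3, the PSA gene, had 1446, 1553 and 1569 FPKM with vehicle and 1244, 1344 and 1349 FPKM with VIC-1911. The groups did not overlap, and KLK3 fell by 0.20 on the log2 scale (SE 0.04, adjusted p = 9.68e-04, edgeR), to 87.2% of vehicle. KLK2, its closest copy, had 164, 175 and 184 FPKM with vehicle and 175, 182 and 186 FPKM with VIC-1911. These overlapped, with a log2 fold change of 0.06 (SE 0.05, adjusted p = 0.454). KLK4 had 80.8, 89.9 and 87.2 FPKM with vehicle and 98.2, 93.7 and 93.0 FPKM with VIC-1911. These did not overlap, but the log2 fold change of 0.15 (SE 0.06) missed the threshold (adjusted p = 0.0639). Single libraries decide that call, since KLK4 passed without vehicle replicate 2 (0.18, adjusted p = 0.0351) and without VIC-1911 replicate 3 (0.18, adjusted p = 0.0469). KLK15 had 5.73, 7.24 and 4.65 FPKM with vehicle and 6.42, 5.41 and 6.55 FPKM with VIC-1911, which overlapped (log2 fold change 0.04, SE 0.18, adjusted p = 0.926).

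Of the 4 members tested at 2 days, 1 fell and 0 rose, where 7.19% of 12241 tested genes fell and 7.5% rose. KLK3 fell by less than 1.5-fold, a limit that 1.33% of genes passed downwards. KLK1, with 3 to 5 counts, and KLK11 had too few counts to be tested. The 9 luminal markers summed to 1016 to 1066 FPKM with vehicle and 1110 to 1122 with VIC-1911 at 2 days. Of them 5 rose and 0 fell, and their part in the KLK3 result was not tested. Of the markers of other cell types, fibroblast markers summed to 1.61 to 1.88 FPKM with vehicle and 1.14 to 1.35 with VIC-1911 at 2 days. COL1A1 fell by 0.49 (adjusted p = 0.0334), and the part of the fibroblast markers in the KLK3 result was not tested either.

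After 7 days all 4 of the expressed members were lower with VIC-1911 than with vehicle. KLK3 had 2668, 2697 and 2678 FPKM with vehicle and 1863, 1815 and 1746 FPKM with VIC-1911. The groups were far apart, and KLK3 fell by 0.61 on the log2 scale (SE 0.04, adjusted p = 6.64e-14), to 65.4% of vehicle. KLK2 had 243, 238 and 240.4 FPKM with vehicle and 172, 169 and 161 FPKM with VIC-1911. It fell by 0.57 (SE 0.04, adjusted p = 3.14e-12), with no overlap. KLK4 had 138, 158 and 161 FPKM with vehicle and 90.2, 97.4 and 94.2 FPKM with VIC-1911. Its decrease of 0.74 (SE 0.05, adjusted p = 7.97e-13), to 60.0% of vehicle, was the largest of the 4 in this comparison. KLK15 had 9.51, 8.15 and 8.75 FPKM with vehicle and 6.28, 6.18 and 7.73 FPKM with VIC-1911, and fell by 0.41 (SE 0.11, adjusted p = 0.00246). KLK1, tissue kallikrein, which releases kinins from kininogen, had 7, 7 and 8 counts with vehicle and 11, 10 and 12 with VIC-1911, and did not pass (log2 fold change 0.57, SE 0.44, adjusted p = 0.279).

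With olaparib KLK3 had 1628, 1663 and 1682 FPKM, below every vehicle library, and fell by 0.71 (SE 0.04, adjusted p = 2.12e-15). KLK2 had 147, 149 and 151 FPKM and also fell by 0.71 (SE 0.04, adjusted p = 2.28e-14). KLK4 had 117, 124 and 125 FPKM, between the vehicle and the VIC-1911 libraries, and fell by 0.33 (SE 0.05, adjusted p = 3.46e-06). KLK15 had 5.13, 4.97 and 4.87 FPKM, and fell by 0.85 (SE 0.12, adjusted p = 4.75e-07), to 55.7% of vehicle.

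With both drugs KLK3 had 1728, 1599 and 1684 FPKM, overlapping the olaparib libraries, and fell by 0.69 (SE 0.04, adjusted p = 3.27e-15) against vehicle. KLK2 had 150, 134 and 136 FPKM and fell by 0.78 (SE 0.04, adjusted p = 1.36e-15). KLK15 had 4.77, 4.24 and 4.88 FPKM and fell by 0.92 (SE 0.12, adjusted p = 7.15e-08), to 52.9% of vehicle. KLK4 had 132, 134 and 135 FPKM, close under the lowest vehicle library of 138 FPKM, and fell by 0.19 (SE 0.05, adjusted p = 0.00247), to 87.8% of vehicle.

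In each of the 3 comparisons with the 7-day vehicle, which share the same vehicle libraries, 4 of 5 tested members fell and 0 rose. The share of all 14409 tested genes that fell was 25.7% with VIC-1911, 25.9% with olaparib and 28% with both, and the share that rose was 26.7%, 28.1% and 28.6%. None of the 4 members fell by as much as 2-fold, as 3.43%, 3.53% and 4% of genes did. The summed FPKM of all 6 members went from 3083 ± 22.2 with vehicle to 2077 ± 62.2 with VIC-1911, 1934 ± 32.9 with olaparib and 1950 ± 72.1 with both (SD, n = 3). In bulk RNA, fewer cells making a transcript and less of it per cell cannot be told apart. The 9 luminal markers moved in both directions: 1 rose and 5 fell with VIC-1911, and 2 rose and 6 fell with olaparib and with both. Their summed level was 1580 to 1609 FPKM with vehicle, 1296 to 1344 with VIC-1911, 1238 to 1308 with olaparib and 1176 to 1229 with both. Their part in the kallikrein result was not tested. Markers of other cell types moved at low levels, and their part was not tested either. The 3 fibroblast markers summed to 1.41 to 1.89 FPKM with vehicle, 1.37 to 1.69 with VIC-1911, 1.91 to 2.22 with olaparib and 2.12 to 2.42 with both, with DCN listed at 0. COL1A1 rose with olaparib by 0.28 (adjusted p = 0.0402) and with both drugs by 0.43 (adjusted p = 0.00160), and COL3A1 rose with both by 1.28 (adjusted p = 0.0239). The 5 neuroendocrine markers summed to 1.27 to 1.68, 0.948 to 1.01, 0.600 to 0.783 and 0.565 to 0.599 FPKM in the same order. The tested one, SYP, fell in all 3 comparisons, with log2 fold changes of -0.58, -1.27 and -1.22 (adjusted p = 0.0308, 6.20e-05 and 6.61e-05). The 3 basal markers summed to 1.40 to 1.59, 0.799 to 1.35, 1.88 to 2.76 and 2.43 to 2.89 FPKM. KRT14, the tested basal marker, fell with VIC-1911 by 0.58 (adjusted p = 0.0360) and rose with olaparib by 0.58 (adjusted p = 0.0143) and with both by 0.80 (adjusted p = 6.64e-04).

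**Figure D2:**
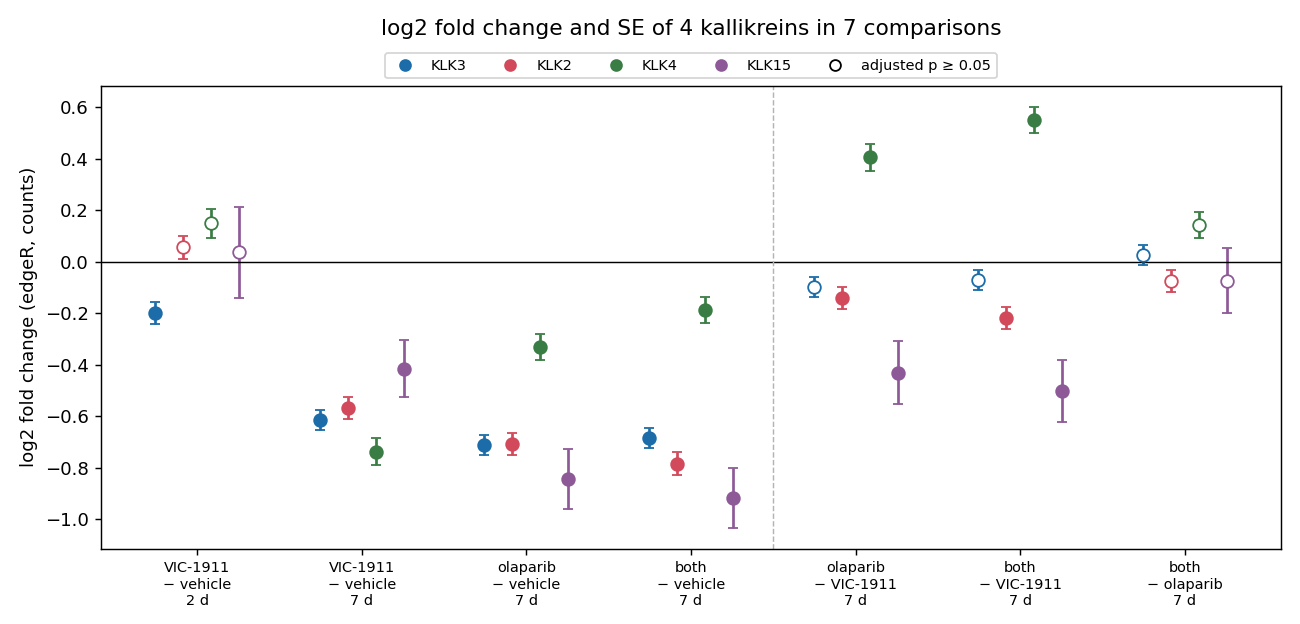
Log2 fold change of KLK3, KLK2, KLK4 and KLK15 from the counts (y axis) in 7 comparisons (x axis), with SE bars; filled points passed an adjusted p of 0.05 and open points did not. KLK4 moves from -0.74 with VIC-1911 to -0.19 with both drugs at 7 days, while KLK2 moves from -0.57 to -0.78.

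The treated groups of 7 days differed in KLK4 and little in KLK3. KLK4 was higher with olaparib than with VIC-1911 by 0.41 (SE 0.05, adjusted p = 1.10e-06), and higher with both drugs than with VIC-1911 alone by 0.55 (SE 0.05, adjusted p = 8.28e-10). KLK2 went the other way, lower by 0.14 with olaparib (SE 0.04, adjusted p = 0.0169) and by 0.22 with both (SE 0.04, adjusted p = 1.47e-04), each against VIC-1911. KLK15 was also lower against VIC-1911, by 0.43 with olaparib (SE 0.12, adjusted p = 0.00991) and by 0.50 with both (SE 0.12, adjusted p = 0.00108). KLK3 did not pass in either, at -0.10 with olaparib (SE 0.04, adjusted p = 0.0683) and -0.07 with both (SE 0.04, adjusted p = 0.135). The KLK3 FPKM of the libraries did not overlap in either comparison. Over all genes 23.4% passed for olaparib against VIC-1911 and 42.9% for both against VIC-1911. These comparisons also cross the 2 ranges of library numbers. For olaparib against VIC-1911, the KLK2 call was lost without VIC-1911 replicate 1, VIC-1911 replicate 2 or olaparib replicate 2 (adjusted p = 0.0871, 0.0609 and 0.0602). The KLK15 call was lost without VIC-1911 replicate 3 or olaparib replicate 3 (adjusted p = 0.123 and 0.0526). KLK3 passed there without VIC-1911 replicate 3 (adjusted p = 0.0397) and with DESeq2 (adjusted p = 0.0306).

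Adding VIC-1911 to olaparib left 0 of 5 tested members past the threshold, where 11.5% of all genes passed (edgeR), and DESeq2 also passed 0. KLK4, whose libraries did not overlap, was at 0.14 (SE 0.05, unadjusted p = 0.00919, adjusted p = 0.0685). KLK4 passed with upper-quartile scaling (0.16, adjusted p = 0.0477) and in a fit of only the groups compared (0.14, adjusted p = 0.0460). The others were between -0.08 for KLK2 and 0.21 for KLK1, and KLK3 was at 0.03 (SE 0.04, adjusted p = 0.749).

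The interaction of the drugs, the combination's effect less the sum of the single effects on the log2 scale, was above 0 for 3 members. The single effects on KLK3 sum to -1.33, whereas the combination gave -0.69, a difference of 0.64 (SE 0.05, adjusted p = 9.89e-11). For KLK2 the sum was -1.27 and the combination gave -0.78, a difference of 0.49 (SE 0.06, adjusted p = 1.09e-07). For KLK4 the sum was -1.07 and the combination gave -0.19, a difference of 0.88 (SE 0.07, adjusted p = 4.80e-11). KLK15, at 0.34 (SE 0.17, adjusted p = 0.101), and KLK1, at -0.36 (SE 0.59, adjusted p = 0.652), did not pass. Without VIC-1911 replicate 3 KLK15 was at 0.47 and passed (adjusted p = 0.0343). In this contrast 44% of all 14409 genes passed, 21% as higher and 22.9% as lower. It takes both of its differences within 1 range of library numbers.

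The VIC-1911 effect at 7 days was lower than that at 2 days for the same 3 genes. The difference was -0.43 for KLK3 (SE 0.06, adjusted p = 1.07e-07), -0.64 for KLK2 (SE 0.06, adjusted p = 1.23e-11) and -0.90 for KLK4 (SE 0.08, adjusted p = 1.14e-12). KLK15 was at -0.47 (SE 0.21, adjusted p = 0.102) and KLK1 at 1.07 (SE 0.75, adjusted p = 0.317). KLK15 passed without the 2-day vehicle replicate 2 (-0.63, adjusted p = 0.0469) or without the 7-day VIC-1911 replicate 3 (-0.59, adjusted p = 0.0406). Of 13828 genes, 28.7% passed, and 14.2% passed with a lower value. The time points are separate experiments. The vehicle cultures had a mean of 1523 FPKM of KLK3 after 2 days and 2681 FPKM after 7 days. These FPKM values were normalized separately, and the vehicle groups were not tested against each other. The counts behind the contrast were normalized together in the joint fit.

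**Figure D3:**
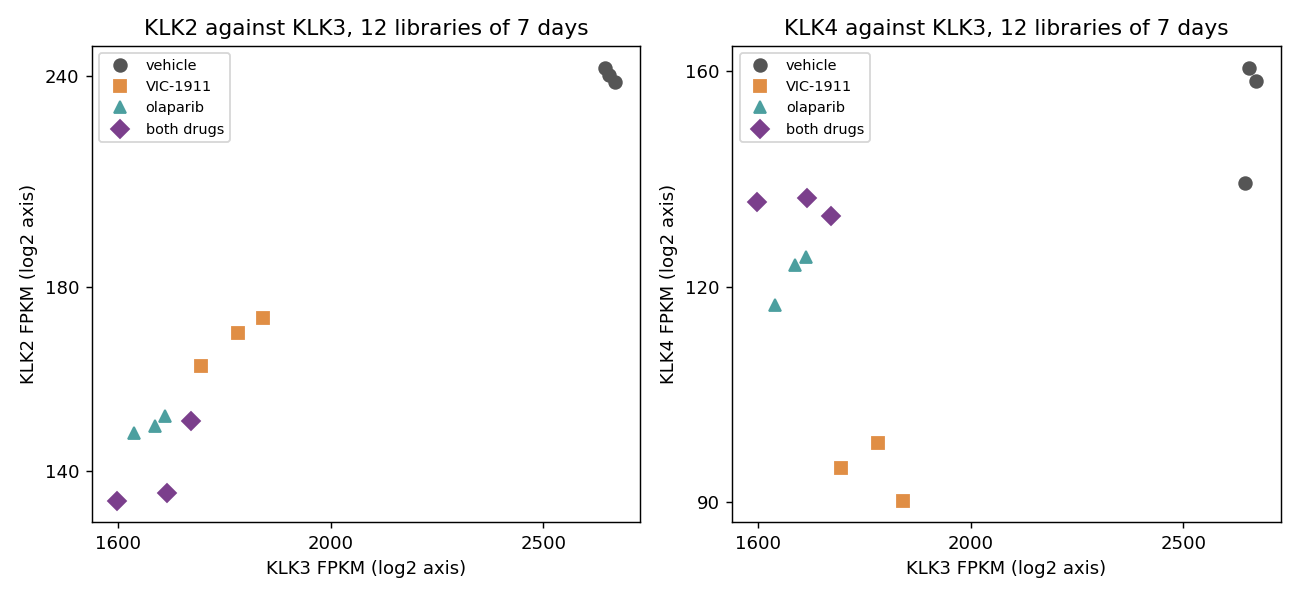
FPKM of KLK2 (left) and KLK4 (right) against KLK3 FPKM in the 12 libraries of 7 days, on log2 axes, with 1 symbol per group. KLK2 lies along KLK3 across all groups, while the KLK4 values of the VIC-1911 libraries, 90.2 to 97.4 FPKM, lie below those of the olaparib and combination libraries. The KLK3 values of the VIC-1911 libraries, 1746 to 1863 FPKM, lie above those of the olaparib (1628 to 1682) and combination libraries (1599 to 1728).

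The ratio of KLK3 to KLK2 FPKM, a check on whether the copies moved together, was 8.73 ± 0.192 with vehicle and 7.25 ± 0.150 with VIC-1911 at 2 days (SD, n = 3). On the log2 scale it differed by -0.27, the groups did not overlap, and the two-sided exact permutation p was 0.1, the smallest that 3 against 3 allows. At 7 days the ratio was 11.1 ± 0.167 with vehicle, 10.8 ± 0.0367 with VIC-1911, 11.1 ± 0.0636 with olaparib and 11.9 ± 0.439 with both. The log2 differences from vehicle were -0.05 (exact permutation p = 0.1), -0.003 (exact permutation p = 1) and 0.10 (exact permutation p = 0.1). KLK4 as a percentage of KLK3 FPKM was 5.64% ± 0.128 with vehicle and 7.25% ± 0.552 with VIC-1911 at 2 days. At 7 days it was 5.68% ± 0.446 with vehicle, 5.20% ± 0.311 with VIC-1911, 7.35% ± 0.134 with olaparib and 8.02% ± 0.389 with both.

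Across the 12 libraries of 7 days, which share 4 groups and so are no independent points, the log2 CPM of KLK2 and KLK3 correlated at r = 0.983, of KLK2 and KLK15 at 0.917, of KLK3 and KLK4 at 0.569 and of KLK2 and KLK4 at 0.439. Among 12104 genes the 5 most like KLK3 were TRIB3, TMCO3, CARS, PCK2 and HERPUD1, with r between 0.992 and 0.994. Those most like KLK2 were P4HB, DEGS1, SREBF2, MARS and HYOU1, in the same span of r. KLK15 was most like TAP2, AGTRAP, SPCS1, ME1 and TMED5, with r from 0.970 to 0.983. For KLK4 they were MBD6, ZNF512, LTC4S, ZMYM3 and RSRP1, with r from 0.959 to 0.973. The like genes differ in how far they fell: PCK2 went from 246 FPKM with vehicle to 16.5 with VIC-1911, while P4HB went from 567 to 413.

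Of 11 other kallikrein-named genes in the tables, KLKP1, a pseudogene of the locus, and KLK12 had enough counts at 7 days, and only KLKP1 at 2 days. KLKP1 had 5.84 ± 0.599 FPKM with the 7-day vehicle and fell by 0.59 with VIC-1911 (SE 0.17, adjusted p = 0.00436), by 0.89 with olaparib (SE 0.17, adjusted p = 7.99e-05) and by 1.08 with both (SE 0.17, adjusted p = 5.40e-06). With VIC-1911 its libraries overlapped those of vehicle, and the call was lost without VIC-1911 replicate 3 (-0.43, adjusted p = 0.0586). KLK12, with at most 20 counts in a library, fell by 0.89 with olaparib (SE 0.38, adjusted p = 0.04997) and by 1.03 with both (SE 0.38, adjusted p = 0.0240). The call with olaparib was lost without any 1 of the 6 libraries compared (adjusted p from 0.0543 to 0.198), and that with both was lost without vehicle replicate 2 (adjusted p = 0.0715), without combination replicate 1 (adjusted p = 0.0668) and with DESeq2 (adjusted p = 0.0726).

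Androgen response genes other than kallikreins mostly rose after 2 days with VIC-1911 and moved in both directions at 7 days. Of 44 tested after 2 days with VIC-1911, 28 rose and 2 fell, where 7.5% and 7.19% of all genes did, with a median log2 fold change of 0.29 against 0.00 over all genes. At 7 days 21 rose and 15 fell with VIC-1911, 22 rose and 17 fell with olaparib, and 22 rose and 18 fell with both, where between 25.7% and 28.6% of all genes moved each way, with medians of 0.16, 0.24 and 0.23 against -0.01, 0.01 and 0.00 over all genes. The 28 that rose at 2 days became 22 to 25 with 1 library left out. The 2 that fell at 2 days became 1 without either VIC-1911 replicate 1, 2 or 3 or vehicle replicate 1 or 3. FKBP5, a co-chaperone of steroid receptors, rose with both drugs by 1.06 (SE 0.05, adjusted p = 6.38e-17). MAF rose by 2.77, EAF2 by 2.85 and NDRG1 by 1.44. TMPRSS2, a membrane serine protease, fell by 0.76 (SE 0.05, adjusted p = 1.71e-14). FOLH1, which encodes prostate-specific membrane antigen, fell as well, as did ABHD2, STEAP2 and PPAP2A, with log2 fold changes of -1.19, -1.26, -1.09 and -0.88. At 2 days TMPRSS2 rose with VIC-1911 by 0.14 (SE 0.05, adjusted p = 0.0290), where KLK3 fell.

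**Figure D4:**
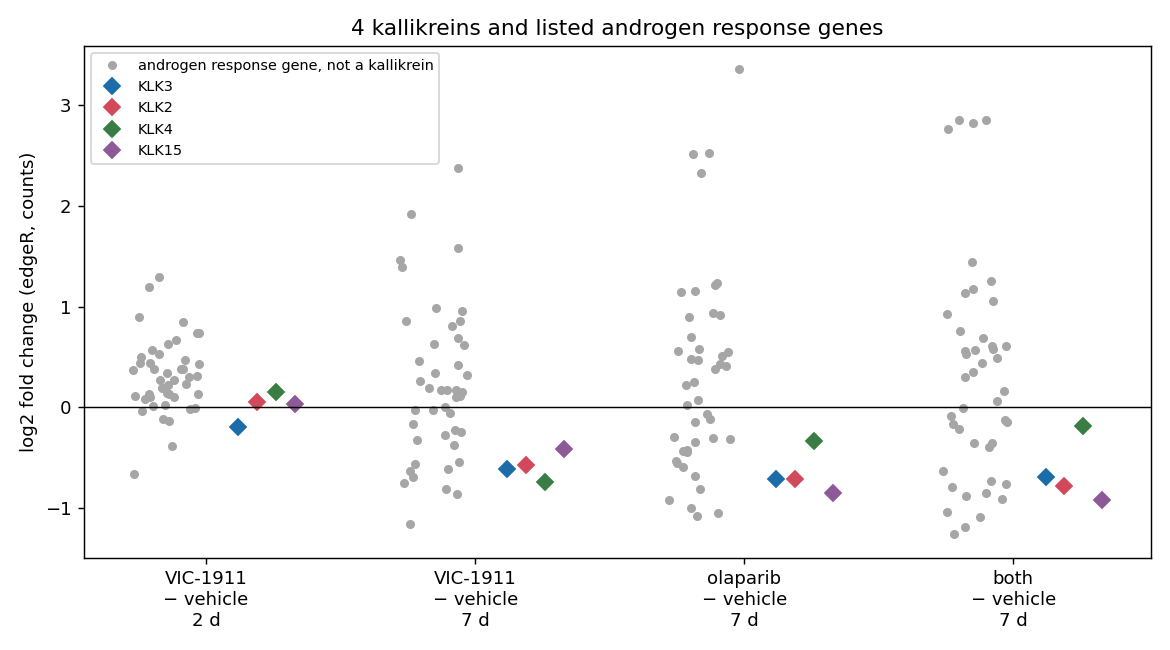
Log2 fold change from the counts (y axis) of 44 listed androgen response genes that are not kallikreins (grey, spread sideways for sight) and of KLK3, KLK2, KLK4 and KLK15 (diamonds) in the 4 comparisons with vehicle. The grey points lie on both sides of 0 at 7 days, while the 4 kallikreins all lie below it.

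Transcription factors and cofactors known from steroid hormone signalling moved in both directions. FOXA1, a pioneer factor in the prostate, fell at 7 days, with log2 fold changes of -0.18 with VIC-1911, -0.16 with olaparib and -0.15 with both. HOXB13, a prostate homeobox factor, fell with olaparib (-0.28) and with both (-0.49), and was at 0.01 with VIC-1911 (adjusted p = 0.889). HSP90AA1, FKBP4, KDM1A and GRHL2 rose with both drugs by 0.64, 0.56, 0.45 and 0.29, and the coactivators NCOA1 and NCOA2 and the corepressor NCOR1 fell, with log2 fold changes of -1.12, -0.72 and -0.39.

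Among inhibitors and substrates of kallikreins, 13 were tested at 7 days, of which 4 rose and 6 fell with both drugs, 4 rose and 7 fell with olaparib, and 2 rose and 7 fell with VIC-1911. Over all genes 28.6% rose and 28% fell with both drugs, 28.1% and 25.9% with olaparib, and 26.7% and 25.7% with VIC-1911. The list's medians were -0.10, -0.21 and -0.41 in the same order. The 4 that rose with both became 2 without vehicle replicate 2 or combination replicate 1. SERPINA3, the serpin that binds PSA in blood, had 35 to 72 counts in the vehicle libraries of 7 days and 2 to 13 in the treated ones, and fell by 3.61 with VIC-1911 (SE 0.35, adjusted p = 6.19e-10), with log2 fold changes of -2.93 with olaparib and -2.83 with both. SERPINA5, the protein C inhibitor, had at most 5 counts and was not tested. SLPI, a secreted serine protease inhibitor, fell with both drugs by 2.25 (SE 0.22, adjusted p = 7.18e-10). SERPINI1 (-1.87) and SPINT1 (-0.48), an inhibitor of membrane serine proteases, fell too. IGFBP3, a binding protein that PSA can cleave, rose from 2.39 ± 0.509 to 28 ± 2.21 FPKM with both drugs (log2 fold change 3.62, SE 0.12, adjusted p = 1.30e-20) and was at -0.32 with VIC-1911 (adjusted p = 0.149). TGFB2 rose with both drugs by 3.92 from 0 to 11 counts in the vehicle libraries, F2RL1, a receptor cleaved by trypsin-like proteases, by 0.19, and SERPINF2, with at most 16 counts, by 1.70.

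Other prostate proteases of the membrane or secreted kind fell in most cases at 7 days. Of 15 tested, 13 fell and 0 rose with VIC-1911, 12 fell and 0 rose with olaparib, and 12 fell and 1 rose with both, with medians of -0.39, -0.45 and -0.52. Over all genes 25.7%, 25.9% and 28% fell, and the medians were -0.01, 0.01 and 0.00. At 2 days 3 rose and 3 fell of 13; 1 rose without vehicle replicate 1 or VIC-1911 replicate 2, and 1 fell without vehicle replicate 1 or VIC-1911 replicate 1. With both drugs DPP4, a dipeptidyl peptidase, fell by 0.76, ADAM9 fell by 0.53, and ADAM10 was the gene that rose, by 0.12, which was lost (0 rose) without vehicle replicate 1, vehicle replicate 2 or combination replicate 3. In the interaction contrast 11 of the 15 passed with a higher value, 0 passed with a lower one and 4 did not pass, where 21% and 22.9% of all genes passed as higher and lower.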

How the data were processed

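RNA of C4-2B cells was measured in 18 libraries. Per the study's methods and the submitters' processing notes, reads were trimmed (Trimmomatic) and mapped to GRCh38 (STAR, 2.6.0 in the notes). The authors deposited raw counts per gene, 1 table per time point, and FPKM values made with an in-house script. The strand setting and the read length are not given in the sources used here. The deposited 7-day FPKM values equal the counts over 1 length per gene and 1 constant per library. The 2-day FPKM values rest on other read numbers than the counts, and the reads behind FPKM per count were 1.02 for KLK2 and 1.01 for KLK3 relative to the median gene.

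Genes reaching 10 counts in 3 or more libraries were fitted with edgeR 4.0.16 in R 4.3.3 (TMM, glmQLFit, glmQLFTest), 1 fit for each time point and 1 for the 2 VIC-1911 effects. This left 12241 genes at 2 days, 14409 at 7 days and 13828 in the joint fit. Benjamini-Hochberg adjustment ran over all genes of a comparison, and an adjusted p under 0.05 passed. FPKM values are means ± SD, and log2 fold changes come from the counts. The SE of an edgeR log2 fold change was calculated as its absolute value over the square root of the test's F statistic. The KLK3 to KLK2 ratio was tested with an exact permutation test (scipy 1.17.1). The alternatives were upper-quartile scaling, library size only, DESeq2 1.42.0, no filter, a mean FPKM filter of 1, the replicate block, the compared groups alone, limma 3.58.1 on log2(FPKM + 0.1) and log2(FPKM + 1), and each library left out. The code was tested on simulated data. Total counts of 3245273 to 19684208 set the precision. All 36 columns were used.

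The members and gene lists were chosen with earlier results of these data known. All members were named, further genes were named by adjusted p in the combination against vehicle, up to 4 per direction and list, beside 8 genes always named, of which 2 are not reported here, and like genes by the 5 highest correlations. Promoters are from RefSeq.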

Additional observations from a re-analysis of the deposited data

Results flagged for a closer look

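Differences between 2 effects were tested by a contrast in the edgeR fit over all genes, and 6 of those for the kallikreins passed an adjusted p of 0.05. For the drug interaction at 7 days the value on the log2 scale was 0.49 for KLK2, 0.64 for KLK3 and 0.88 for KLK4, each with the combination closer to vehicle than the sum of the single drugs. For the change in the VIC-1911 effect from 2 to 7 days it was -0.64 for KLK2, -0.43 for KLK3 and -0.90 for KLK4. Single outlying libraries were not tested for in these groups of 3.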

How the results depend on the processing

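The calls of KLK2, KLK3, KLK4 and KLK15 against the 7-day vehicle kept their direction and side of the threshold in every alternative run. At 2 days the count of members past the test was 1, and 2 with no filter on counts, between 1 and 2 with a library left out. For the combination against olaparib it was 0, and 1 (KLK4) with upper-quartile scaling and with only the groups compared. Whether the replicate numbers pair the samples is not settled. The median correlation of same-numbered libraries was 0.0795 at 2 days and 0.0311 at 7 days, against -0.0647 and -0.0426 for other libraries. The ranges overlapped, and the lowest same-numbered values were -0.0183 and -0.194. With the replicate block the count for the combination against olaparib was 1 (KLK4). The block moved no other count of members by over 1.5 times. Results below the threshold changed sign in places. KLK1 in the combination against VIC-1911, at -0.01, was 0.0232 with upper-quartile scaling and 0.0131 with library size only. With a library left out, it ranged from -0.12 to 0.14 there, from -0.14 to 0.72 for olaparib against vehicle, from -0.12 to 0.69 for the combination against olaparib, from -0.71 to 0.11 for olaparib against VIC-1911 and from -0.74 to 0.12 for the interaction. KLK15 at 2 days ranged from -0.15 to 0.20, and the KLK3 to KLK2 log2 ratio for olaparib against vehicle from -0.013 to 0.0081. Depth limits KLK1 and KLK11 most.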
